A study of Mus musculus with 24 samples.

Results

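Transcript levels in the suprachiasmatic nucleus (SCN) of mice kept in constant darkness were compared between subjective dusk, when the inner day of the animals ends, and subjective dawn, when it begins. The series holds 24 arrays, 1 every 2 h from CT18 to CT64, where CT is circadian time in hours counted on over 2 cycles, and 11 of them entered the comparison. Dawn was the 6 arrays at CT22, CT24, CT26, CT46, CT48 and CT50 (circadian times 22, 0 and 2 in each cycle). Dusk was the 5 arrays at CT34, CT36, CT38, CT58 and CT60 (circadian times 10, 12 and 14, without the last time of the second cycle). The array at CT62 was left out because its values span a narrow range, with an interquartile range of 2.67 log2 units against 2.77 to 2.81 in the dusk arrays. All animals were C57/BL6 mice that had lived for 3 weeks in 12 h of light and 12 h of darkness before lights were withheld, and by the labels the groups differed only in the time of collection. Age and sex are not given in the sources used here. Each array carried RNA pooled from 3 mice. A window holds neighbouring times in place of repeats of 1 time, so its spread includes any change within the window, and p-values measure the spread between these pools. The number of arrays limits the precision.

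The SCN is the hypothalamic pacemaker that times daily rhythms of the whole body. In its neurons CLOCK and BMAL1 (the product of Arntl) switch on Per and Cry genes through DNA motifs called E-boxes, and the PER and CRY proteins build up and shut that activation off. In a nocturnal animal the adrenal glucocorticoid corticosterone rises towards dusk, and body temperature follows a daily course as well.

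Values are log2 intensities, and a difference is dusk minus dawn in log2 units with its standard error. Of 13956 genes tested with limma, 56 differed at a Benjamini-Hochberg adjusted p below 0.05, which is 0.401% of genes. At dusk 27 were higher (0.193%), by 1.21-fold to 2.09-fold. At dawn 29 were higher (0.208%), by 1.18-fold to 1.57-fold. The dusk-high genes included the clock repressors Per2 and Cry1, 5 genes that glucocorticoids induce, 3 that interferon induces and the cold-inducible Rbm3. The dawn-high genes included Rgs16, the heat shock genes Hsph1 and Ahsa1, the chaperone gene Calr and the transcriptional regulator Id2. In 49 of the 56 genes the values of the 2 windows did not overlap, against 2.88% of all genes tested. As the 56 were called on these same values, the lack of overlap follows largely from the call and adds no separate support.

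**Figure D1:**
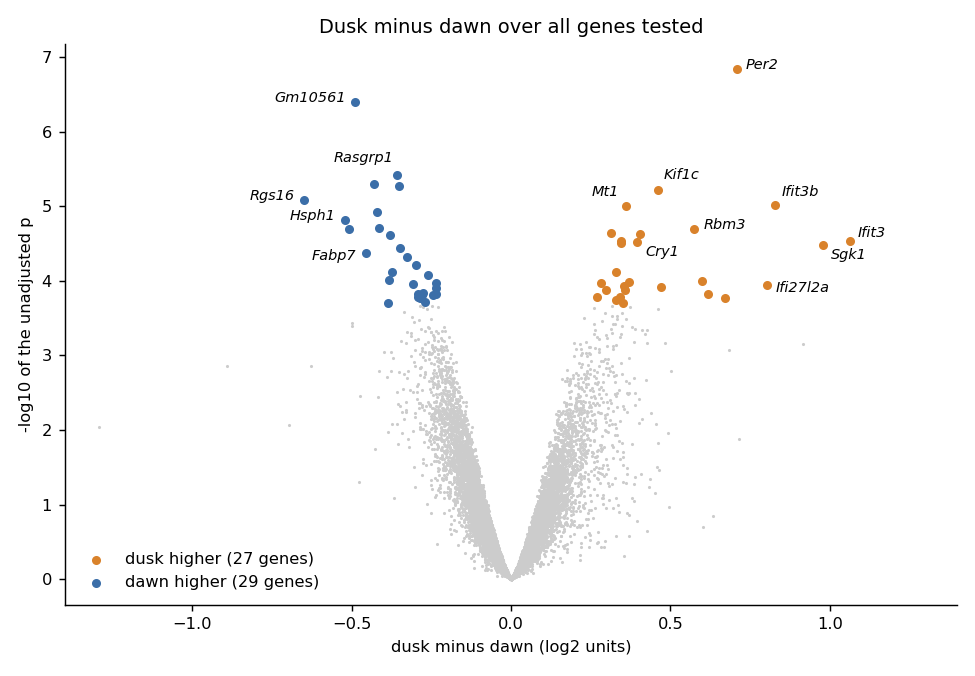
Each point is 1 of the genes tested, with dusk minus dawn (log2 units) on the x axis and the negative log10 of the unadjusted limma p on the y axis, in orange for the 27 genes higher at dusk and in blue for the 29 higher at dawn. Per2 and Gm10561 have the smallest p on their sides, and 1 gene lies beyond the x axis.

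Those counts moved with single arrays. Without CT36 only Per2 and Gm10561 passed, without CT60 6 genes passed, without CT48 7 and without CT24 11. Without CT22, CT38, CT46, CT50 or CT58 the number was 27, 35, 34, 24 and 30, and without CT26 or CT34 it rose to 266 and 228. All 56 genes kept an unadjusted p below 0.05 in each of these 11 fits. Since they were called on these same arrays, this follows largely from the call and adds no separate support. Quantile normalisation gave 21 genes higher at dusk and 15 at dawn.

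Per2, whose protein represses its own transcription, had the smallest p of all genes. At dawn it ranged from 6.80 to 7.01 with a median of 6.89. At dusk it measured 7.50, 7.59 and 7.41 at CT34, CT36 and CT38, then 7.60 and 7.91 at CT58 and CT60. Every dusk array lay above every dawn array, and the highest value came late in the second cycle. The difference was 0.71 ± 0.08, or 1.63-fold (adjusted p = 0.00205), and it passed the threshold in 11 of 11 fits without 1 array.

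Cry1, the partner of PER proteins in repression, ranged from 6.98 to 7.31 at dawn with a median of 7.19. Its dusk values were 7.44, 7.58 and 7.54 in the first cycle and 7.54 and 7.77 in the second. The windows did not overlap, and the difference was 0.39 ± 0.07 (1.31-fold, adjusted p = 0.0206), kept in 7 of 11 fits without 1 array. In a limma fit with the mean of oligodendrocyte markers as a covariate it was 0.31 ± 0.08 (adjusted p = 0.109). The promoter of Cry1 is shown because it carries the element through which the clock loop is known to act. The stretch below is chr10:85185064-85185159 on the minus strand (RefSeq, GRCm38.p6), written 5′ to 3′, with the E-box in capitals 54 bases before the transcription start.
Cry1: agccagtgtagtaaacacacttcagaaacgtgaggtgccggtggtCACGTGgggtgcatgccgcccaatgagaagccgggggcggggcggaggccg
The same stretch also holds the related E-prime box, searched as CACGTT and read here on the other strand. Windows of 250 bases before to 50 bases after a start were searched on both strands. The E-box letters CACGTG occur in 7.15% of the 32851 windows and CACGTT in 4.68%. Among called genes with a window, an E-box match was found for 2 of 21 dusk-high genes (Cry1 and Sgk1) and 4 of 25 dawn-high genes (Hsph1, Calr, Igf2bp3 and G3bp2), against 11.2% of tested genes. No window of Per2 was in the table.

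The other clock genes differed less. Of 20 genes listed 18 were measured, none below the filter on dim genes, and 2 passed the threshold. At an unadjusted p below 0.05 there were 6 higher at dusk and 5 higher at dawn, against 7.28% and 10.9% of all genes tested, and the median difference was 0.13 against -0.0074 over all genes. On the dusk side, Per3, a further period gene, had a difference of 0.28 ± 0.06 (adjusted p = 0.0713). Dbp, an activator of clock output genes, had 0.32 ± 0.09 (adjusted p = 0.0927), and its relatives Tef and Hlf had 0.17 ± 0.05 and 0.13 ± 0.07. Bhlhe40 and Bhlhe41, repressors that compete at E-boxes, had 0.17 ± 0.06 and 0.09 ± 0.06.

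On the dawn side, Nr1d1, which represses Arntl, had a difference of -0.42 ± 0.12 (adjusted p = 0.111). Its dawn values ran from 9.13 to 9.82 and its dusk values from 8.92 to 9.36, so the windows overlapped, and its highest window mean was at midday. Arntl itself had -0.25 ± 0.07 (adjusted p = 0.0923), with dawn values of 7.61 to 7.86 and dusk values of 7.31 to 7.64. Rorb, a nuclear receptor, had -0.24 ± 0.09, Nfil3, a repressor at sites that DBP activates, -0.18 ± 0.08 and Clock -0.13 ± 0.05. Their adjusted p lay between 0.192 and 0.234.

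The remaining members had small or uneven differences. Ciart, a repressor of the loop, had 0.29 ± 0.15 and ranged from 6.43 at CT38 to 7.57 at CT36 within the dusk window alone. Cry2 had 0.13 ± 0.07, Rora 0.11 ± 0.09 and Nr1d2 0.034 ± 0.058. Per1 had -0.03 in the first cycle and 0.38 in the second, the only clock gene of the 18 whose sign changed between cycles. Its pooled difference was 0.13 ± 0.10.

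**Figure D2:**
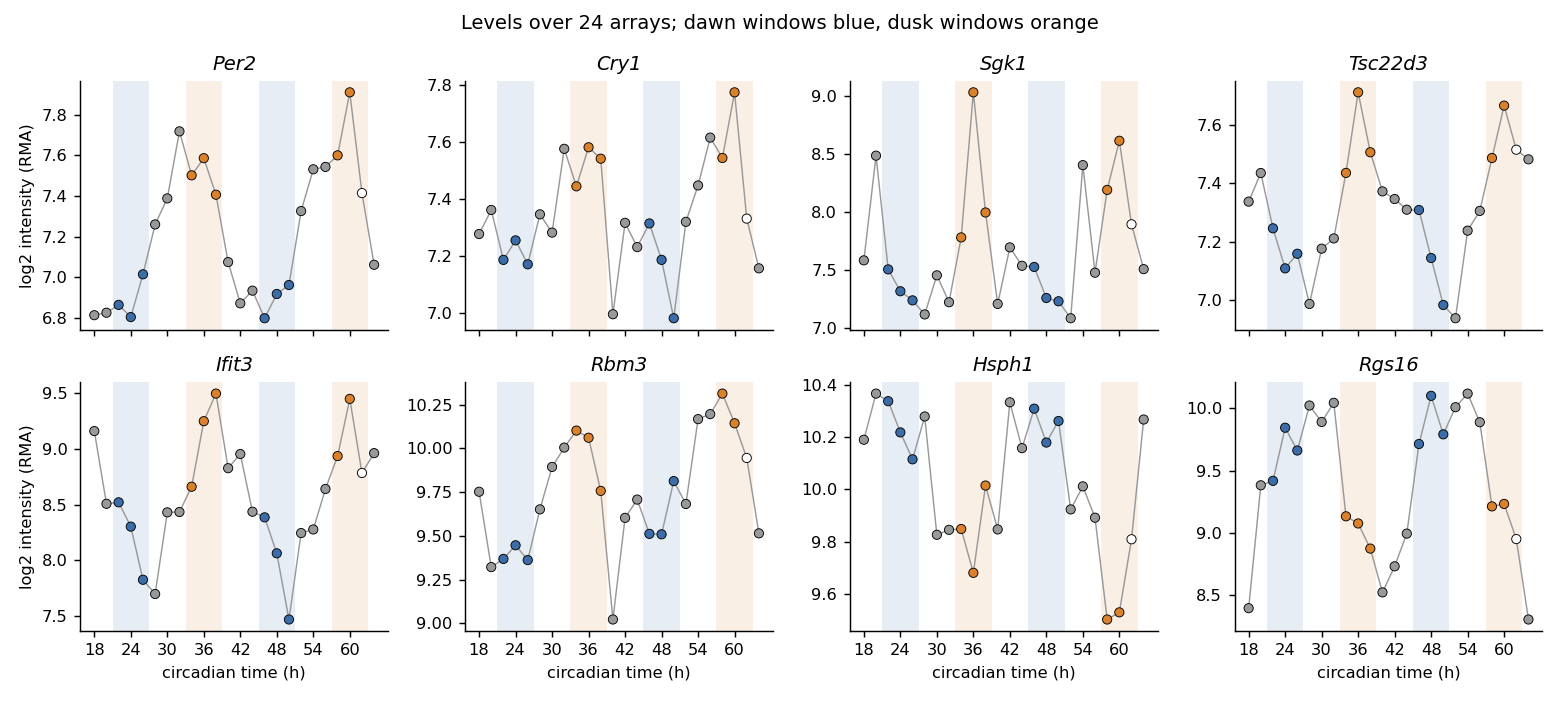
Log2 intensity of 8 genes against circadian time in hours over all 24 arrays, with dawn arrays in blue, dusk arrays in orange, the array left out at CT62 in white and all other times in grey. Per2, Cry1, Sgk1, Tsc22d3 and Ifit3 lie higher in both dusk windows than at dawn and Hsph1 and Rgs16 lower, while Rbm3 at CT38 (9.76) falls just below its highest dawn value (9.81).

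Some genes that glucocorticoids induce were higher at dusk. Of 19 listed 18 were measured and tested, and 5 passed the threshold, all on the dusk side: Sgk1, Nfkbia, Tsc22d3, Mt2 and Mt1. At an unadjusted p below 0.05 there were 12 higher at dusk and 2 higher at dawn, against 7.28% and 10.9% of all genes tested. The difference was above 0 for 16 of the 18 (46.8% over all genes tested), with a median of 0.26, and had the same sign in both cycles for all 18. In a limma fit with the mean of oligodendrocyte markers as a covariate, none of the 5 called genes passed. Their adjusted p in that fit ran from 0.0703 (Mt1) to 0.152 (Nfkbia).

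Sgk1 encodes a kinase that regulates ion transport. It ranged from 7.23 to 7.53 at dawn with a median of 7.29. Its dusk values were 7.78, 9.04 and 7.997 in the first cycle and 8.19 and 8.62 in the second. All dusk values exceeded all dawn values, and those at circadian time 12 stood above their neighbours. Outside both windows Sgk1 also read 8.49 at CT20 (night) and 8.41 at CT54 (midday), above its dusk values at CT34, CT38 and CT58. The difference was 0.98 ± 0.17, or 1.97-fold (adjusted p = 0.0210, kept in 6 of 11 fits without 1 array).

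Tsc22d3 encodes GILZ, a leucine zipper protein that carries anti-inflammatory effects of glucocorticoids. Dawn values ran from 6.98 to 7.31 with a median of 7.15, and dusk values were 7.44, 7.71, 7.51, 7.49 and 7.67 in order of time. The windows did not overlap, with a difference of 0.40 ± 0.07 (1.32-fold, adjusted p = 0.0199, kept in 7 of 11). Nfkbia, the inhibitor of NF-kappaB, ran from 7.25 to 7.48 at dawn and measured 7.48, 8.04, 7.72, 7.72 and 8.05 at dusk, so that CT34 only met the top of the dawn range. Its difference was 0.47 ± 0.09 (adjusted p = 0.0445, kept in 2 of 11).

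The metallothioneins Mt1 and Mt2 bind zinc and copper. Mt1 ran from 12.10 to 12.28 at dawn, and at dusk measured 12.45, 12.62, 12.46, 12.46 and 12.67. Mt2 ran from 11.51 to 11.70 at dawn, and at dusk measured 11.92, 12.17, 11.73, 12.04 and 12.06. Both were free of overlap, with differences of 0.36 ± 0.06 (adjusted p = 0.0156, kept in 8 of 11) and 0.37 ± 0.07 (adjusted p = 0.0436, kept in 3 of 11). Mt2 was named after its values were seen, as were the further genes of this list.

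Klf9, a transcription factor, and Klf15, its relative in metabolism, did not overlap between the windows either, at 0.25 ± 0.06 and 0.30 ± 0.08, but their adjusted p were 0.0811 and 0.0874. The member with the opposite sign and the largest size was Lcn2, an iron-siderophore binding protein of inflammation, at -0.89 ± 0.23 (adjusted p = 0.0853). It was -1.25 in the first cycle and -0.50 in the second.

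The promoters of Sgk1 and Mt1 are printed because each holds the palindrome ACANNNTGT of a glucocorticoid response element, in capitals. The Sgk1 stretch is chr10:21993659-21993757 and that of Mt1 chr8:94178952-94179050, both on the plus strand (RefSeq, GRCm38.p6), and the matches end 177 and 83 bases before a start.
Sgk1: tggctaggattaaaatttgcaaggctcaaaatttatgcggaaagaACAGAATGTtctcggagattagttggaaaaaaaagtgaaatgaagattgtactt
Mt1: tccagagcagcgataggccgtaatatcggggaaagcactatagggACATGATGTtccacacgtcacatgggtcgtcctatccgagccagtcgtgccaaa
A match was found for 3 of 21 dusk-high genes with a window (Sgk1, Mt1 and Ctla2a) and 1 of 25 dawn-high genes (4933405O20Rik), against 5.27% of tested genes and 6.85% of all windows. A match is a string of letters and no measured binding site. None of the motifs searched was found in the 3 windows of Tsc22d3.

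The dusk arrays were not level among themselves. All 5 called glucocorticoid genes had CT36 as the highest of CT34, CT36 and CT38, and CT60 above CT58, which puts the higher values at circadian time 12 in both cycles. The order of the 5 dusk arrays held for 13 of the 18 tested members and 16 of the 27 dusk-high genes (59.3%), against 18.5% of all genes tested. CT36 and CT60 are also the 2 arrays whose removal left the fewest calls, and the part of an array effect in this order was not tested.

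Several interferon-induced genes were also higher at dusk. Of 22 listed 19 were measured, 5 lay below the filter and 14 were tested. The threshold was passed by 3, all higher at dusk: Ifit3, Ifit3b and Ifi27l2a. At an unadjusted p below 0.05 there were 10 higher at dusk and 0 at dawn, against 7.28% and 10.9% of all genes tested, and the median difference was 0.26. The markers of oligodendrocytes were also above 0 at dusk minus dawn (11 of 11, median 0.30), and with their mean as a covariate Ifit3 had 0.70 ± 0.17 (adjusted p = 0.107) and Ifi27l2a 0.42 ± 0.11 (adjusted p = 0.126).

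Ifit3, a tetratricopeptide protein of the antiviral response, had the largest called difference of all genes. It ranged from 7.47 to 8.52 at dawn with a median of 8.18, and measured 8.66, 9.25, 9.49, 8.93 and 9.45 at dusk. The windows did not overlap, and the difference was 1.06 ± 0.18, or 2.09-fold (adjusted p = 0.0206, kept in 6 of 11 fits without 1 array). Ifit3b ranged from 5.84 to 6.59 at dawn and measured 6.74, 6.91, 7.35, 6.89 and 6.97 at dusk. Its difference was 0.83 ± 0.13 (1.77-fold, adjusted p = 0.0156, kept in 8 of 11).

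Ifit3 and Ifit3b are near-identical copies, so signal may be shared between their probe sets and they are uncertain as separate genes. Their promoters are printed because they show that likeness, each with the core of an interferon-stimulated response element in capitals. That core is GAAA, any 2 bases and GAAA, and it is read here on the other strand. The stretches are chr19:34583362-34583461 and chr19:34607758-34607857, both plus strand (RefSeq, GRCm38.p6).
Ifit3: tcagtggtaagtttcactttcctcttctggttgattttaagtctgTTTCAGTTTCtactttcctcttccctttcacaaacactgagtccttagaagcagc
Ifit3b: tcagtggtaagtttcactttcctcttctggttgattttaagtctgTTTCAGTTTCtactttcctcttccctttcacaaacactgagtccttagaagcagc
Each promoter held 2 matches, and both stretches around them were identical between the genes. A match occurred in 3.44% of all windows, for 3 of 21 dusk-high genes (Ifit3, Ifit3b and Sgk1) and for 2 of 25 dawn-high genes (Dtd1 and Igf2bp3).

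Ifi27l2a, a small protein of the interferon response, spread more widely. It ran from 6.95 to 7.79 at dawn and measured 7.76, 8.52, 8.29, 8.16 and 8.48 at dusk, where CT34 fell within the dawn range. The difference was 0.80 ± 0.16 (1.74-fold, adjusted p = 0.0439, kept in 3 of 11). Other members, picked after their values were seen, were Ifit1 at 0.49 ± 0.17 (adjusted p = 0.147) and Bst2, which tethers budding virions, at 0.37 ± 0.11 (adjusted p = 0.106).

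The list of cold-inducible genes holds Rbm3 and Cirbp, RNA-binding proteins whose transcripts accumulate in cooled cells. Rbm3 ranged from 9.36 to 9.81 at dawn with a median of 9.48, and measured 10.10, 10.06, 9.76, 10.31 and 10.14 at dusk. The overlap came from the dawn array at CT50, which stood apart from the other dawn arrays, and from CT38, the lowest dusk array. The difference was 0.57 ± 0.09, or 1.49-fold (adjusted p = 0.0199, kept in 7 of 11), and the 3 probe sets of Rbm3 gave 0.55 to 0.59. Cirbp had 0.27 ± 0.09 (adjusted p = 0.140), with dawn values of 8.90 to 9.34 and dusk values of 9.32, 9.33, 9.04, 9.52 and 9.45.

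Heat shock genes mostly had the opposite sign. Of 26 listed 23 were measured and tested, and 2 passed the threshold, both higher at dawn: Hsph1 and Ahsa1. At an unadjusted p below 0.05 there were 13 higher at dawn and 0 at dusk, against 10.9% and 7.28% of all genes tested. Only 1 of the 23, Hspb1, had a difference above 0, against 46.8% of all genes, and the median was -0.12 against -0.0074. In 9 the windows did not overlap, against 2.88% of all genes.

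Hsph1, a large HSP110 chaperone that exchanges the nucleotide of HSP70, ranged from 10.11 to 10.34 at dawn with a median of 10.24. At dusk it measured 9.85, 9.68 and 10.01 in the first cycle and 9.50 and 9.53 in the second. Every dusk array lay below every dawn array, more so in the second cycle. The difference was -0.52 ± 0.08 (1.44-fold, adjusted p = 0.0192, kept in 7 of 11), with -0.38 in the first cycle and -0.73 in the second. Dusk held its lowest window mean and dawn its highest.

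The promoter of Hsph1 is shown because it combines an E-box with a heat shock element. The stretch up to the start of one transcript is chr5:149636316-149636379 on the minus strand (RefSeq, GRCm38.p6), with the E-box in capitals.
Hsph1: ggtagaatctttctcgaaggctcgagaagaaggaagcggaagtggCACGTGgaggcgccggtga
The heat shock element, searched as GAA, TTC and GAA or TTC, GAA and TTC with any 2 bases between the units, began 15 bases after that start and is not printed. It occurs in 0.603% of all windows, and Hsph1 was the only one of the 46 called genes with a window that held it.

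Ahsa1, which stimulates the ATPase of HSP90, ranged from 9.67 to 9.92 at dawn and measured 9.50, 9.47, 9.51, 9.53 and 9.30 at dusk. The windows did not overlap, with a difference of -0.33 ± 0.06 (1.25-fold, adjusted p = 0.0266, kept in 4 of 11). Members that missed the threshold, picked after their values were seen, were the co-chaperones Stip1 at -0.31 ± 0.07 (adjusted p = 0.0602) and Fkbp4 at -0.23 ± 0.05 (adjusted p = 0.0677), and the constitutive HSP70 gene Hspa8 at -0.20 ± 0.05 (adjusted p = 0.0698). Hspa1a, the classical inducible HSP70 gene, had -0.013 ± 0.091.

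Chaperones of the endoplasmic reticulum included 1 called gene among 22 tested. Calr encodes calreticulin, which binds calcium and folds glycoproteins. It ranged from 9.90 to 10.21 at dawn and measured 9.78, 9.66, 9.86, 9.70 and 9.77 at dusk, without overlap (difference -0.31 ± 0.06, adjusted p = 0.0436, kept in 3 of 11). At an unadjusted p below 0.05 there were 8 higher at dawn and 1 higher at dusk, against the same 10.9% and 7.28% of all genes tested, and the median was -0.08.

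**Figure D3:**
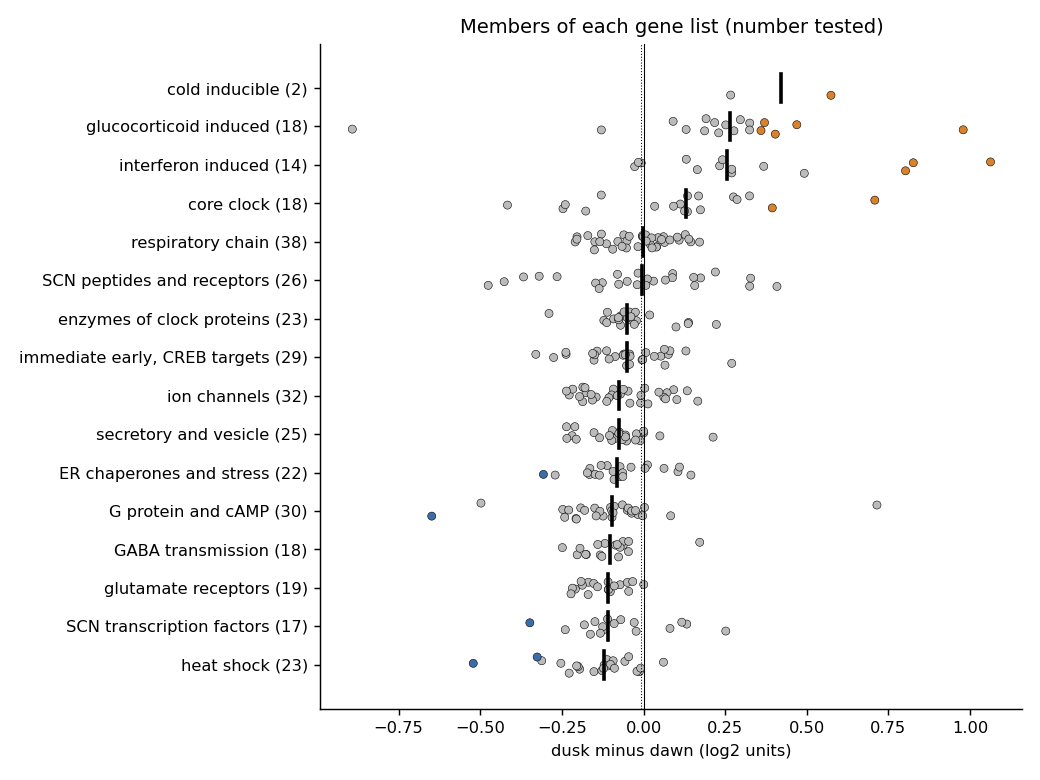
Dusk minus dawn (log2 units, x axis) of every tested member of 16 gene lists, with called members in orange (dusk higher) or blue (dawn higher), a black bar at each list's median and a dotted line at the median of all genes tested. The medians run from 0.42 for the cold-inducible pair to -0.12 for heat shock genes.

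Rgs16 had the largest called difference on the dawn side. It encodes a regulator that shortens signalling through G proteins and is known from the SCN for setting cAMP levels. At dawn it ranged from 9.42 to 10.10 with a median of 9.75, and at dusk it measured 9.13, 9.08, 8.88, 9.21 and 9.23. The windows did not overlap, and the difference was -0.65 ± 0.10, or 1.57-fold (adjusted p = 0.0156, kept in 10 of 11). The windows between them reached further, with means of 9.997 ± 0.09 at midday and 8.72 ± 0.41 at night (SD, n = 6 each).

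Rgs16 was the 1 called member of the 30 tested genes of G protein and cAMP signalling. At an unadjusted p below 0.05 there were 11 higher at dawn and 1 higher at dusk, against 10.9% and 7.28% of all genes tested, with a median of -0.10. Rasl11b, a small GTPase, had -0.50 ± 0.11 (adjusted p = 0.0641), with overlap between its lowest dawn value of 6.83 and 6.87 at CT58. Rasd1, a Ras-like protein that links light input to the clock, had 0.71 ± 0.25 (adjusted p = 0.160), and its dawn values alone ran from 6.66 to 8.07. Both were picked after their values were seen.

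Id2, an inhibitor of helix-loop-helix factors that can bind clock activators, was the 1 called gene among 17 tested transcription factors of the SCN. It ranged from 8.78 to 8.91 at dawn and measured 8.49, 8.46, 8.32, 8.65 and 8.57 at dusk. The windows did not overlap, with a difference of -0.35 ± 0.06 (1.27-fold, adjusted p = 0.0217, kept in 6 of 11). Over all genes tested 0.208% were called higher at dawn. At an unadjusted p below 0.05 the list had 3 higher at dawn and 1 higher at dusk, against 10.9% and 7.28% of all genes tested. The difference was above 0 in 4 of the 17 (46.8% over all genes), and the median of the list was -0.11 against -0.0074.

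The other dawn-high genes of largest difference came from no single list. Gm10561, a predicted gene with no function given, had the second smallest p of all. It ran from 7.55 to 7.75 at dawn, and measured 7.12, 7.28, 7.20, 7.06 and 7.13 at dusk. Its difference was -0.49 ± 0.06 (1.40-fold, adjusted p = 0.00275), kept in 11 of 11 fits without 1 array. No function is given here for 4933405O20Rik either, which had -0.51 ± 0.08 (adjusted p = 0.0199), with dawn values of 6.16 to 6.52 and dusk values of 5.59 to 6.08.

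Fabp7, a fatty acid binding protein of astrocytes, ran from 10.74 to 11.11 at dawn and measured 10.64, 10.36, 10.36, 10.42 and 10.52 at dusk (difference -0.46 ± 0.08, adjusted p = 0.0243, kept in 4 of 11). With the oligodendrocyte marker mean as a covariate its difference was -0.28 ± 0.07 (adjusted p = 0.107). It was the only called gene among 10 astrocyte markers, whose median was -0.07. Mmp14, a membrane-bound protease of the extracellular matrix, ran from 6.77 to 7.04 at dawn and from 6.40 to 6.58 at dusk (difference -0.43 ± 0.06, adjusted p = 0.0141, kept in 10 of 11).

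Slc39a10, a zinc importer, had -0.42 ± 0.07 (adjusted p = 0.0165, 8.57 to 8.91 at dawn, 8.22 to 8.41 at dusk). Its relative Slc39a6, named after its values were seen, had -0.28 ± 0.06 (adjusted p = 0.0455, 8.45 to 8.71 at dawn, 8.23 to 8.44 at dusk). Tmem255a, a membrane protein, had -0.42 ± 0.07 (adjusted p = 0.0199), and Epha6, an ephrin receptor, -0.38 ± 0.07 (adjusted p = 0.0436), both without overlap. Dtd1, a deacylase that edits mischarged tRNA, had -0.39 ± 0.08 (adjusted p = 0.0493), and its dusk value of 9.86 at CT34 reached into the dawn range of 9.83 to 10.13.

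The other 15 dawn-high genes differed by 0.38 or less in size. Among them, chosen after their values were seen, were Rasgrp1, an activator of Ras, at -0.36 ± 0.05, Scn3b, a sodium channel subunit, at -0.29 ± 0.06 and Fgf14, which modulates sodium channels, at -0.29 ± 0.06. Tia1 and G3bp2, proteins of RNA stress granules, were both at -0.24 ± 0.05. Igf2bp3, which binds messenger RNA, was at -0.28 ± 0.06.

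On the dusk side, 3 further genes were among those of largest difference. Gng8, a G protein gamma subunit, ran from 6.80 to 7.34 at dawn and measured 7.06, 7.84, 7.60, 7.50 and 7.68 at dusk (difference 0.62 ± 0.12, adjusted p = 0.0455, kept in 3 of 11). Its overlap came from the dawn array at CT22, the highest of the 6, and from CT34, the lowest of the 5. With the oligodendrocyte marker mean as a covariate the difference of Gng8 was 0.40 ± 0.13 (adjusted p = 0.177). Ctla2a, an inhibitor of cathepsin-like proteases, ran from 6.16 to 6.86 at dawn and measured 6.77, 7.49, 7.02, 6.99 and 7.44 at dusk (0.67 ± 0.14, adjusted p = 0.0459, kept in 3 of 11). Wfdc18, a secreted protein with a whey acidic protein domain, ran from 6.18 to 6.77 at dawn and measured 6.93, 7.25, 7.49, 7.03 and 7.20 at dusk (0.60 ± 0.11, adjusted p = 0.0436, kept in 2 of 11).

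Smaller dusk-high differences, chosen here after their values were seen, included Kif1c, a kinesin motor, at 0.46 ± 0.07 (adjusted p = 0.0141, kept in 9 of 11, with 0.33 for its other probe set). Hepacam, an adhesion molecule of glia, was at 0.31 ± 0.05, Ackr3, a scavenging chemokine receptor, at 0.28 ± 0.05, and Aim2, a sensor of cytosolic DNA, at 0.36 ± 0.07. H2-Bl, at 0.30 ± 0.06, belongs to the class I histocompatibility genes, whose close copies can share signal. H2-Bl was also dim, with dawn and midday means below the filter of log2 5.52 and a night mean just above it. Its mean over all arrays other than the dusk arrays lay just below that filter, so H2-Bl passed only through its dusk values. It stays in the counts, but its call adds no support.

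Genes of neuronal signalling had mostly negative differences, none of which passed the threshold. For GABA, the transmitter of SCN neurons, 17 of 18 tested genes had a difference below 0, with 6 at an unadjusted p below 0.05 (all higher at dawn), 0 called and a median of -0.10. Gabrb1, a GABA-A receptor subunit, had -0.25 ± 0.06 (adjusted p = 0.0724), and Gad2, which makes GABA, -0.20 ± 0.05 (adjusted p = 0.0811). Among 19 glutamate receptor genes the count was 7 at dawn and 0 at dusk, with 0 called and a median of -0.11, and Gria2, an AMPA receptor subunit, had -0.19 ± 0.05 (adjusted p = 0.0778). Over all genes tested 46.8% were above 0, with a median of -0.0074, and 10.9% were higher at dawn and 7.28% at dusk at an unadjusted p below 0.05. Markers of SCN neurons had a difference above 0 in 2 of 9 (median -0.18), and those of oligodendrocytes in 11 of 11 (median 0.30). The SCN marker list includes genes whose own differences are results here, among them Rgs16, Avp, Vip and Prok2. Its median is therefore no separate measure of cell content. The part of cell content in the differences of neuronal genes was not tested.

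Ion channels, secretory genes and the SCN peptides gave no call either. Of 32 channel genes 10 were higher at dawn and 1 at dusk at an unadjusted p below 0.05 (median -0.08). The calcium channel subunit Cacna1e had -0.23 ± 0.05 (adjusted p = 0.0724), and the sodium leak channel Nalcn had -0.18 ± 0.05 (adjusted p = 0.104). Of 25 genes of vesicles and peptide processing 7 were higher at dawn and 1 at dusk (median -0.08). These examples and those of the preceding lists were picked after their values were seen.

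Of 26 tested peptides and receptors of the SCN 3 were higher at each time at an unadjusted p below 0.05, near the shares of all genes tested (10.9% at dawn and 7.28% at dusk), and the median was -0.0049. Avp, the peptide vasopressin, had 0.41 ± 0.18 (adjusted p = 0.245), with dawn values of 10.18 to 11.06 and dusk values of 10.45 to 11.62. Prok2, an output peptide, had -0.48 ± 0.22 (adjusted p = 0.275) and its receptor gene Prokr2 -0.43 ± 0.16 (adjusted p = 0.183). Vip had 0.33 ± 0.18 (adjusted p = 0.336). For each of these the windows overlapped.

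The last 3 lists were also without a call. Of all genes tested 10.9% were higher at dawn and 7.28% at dusk at an unadjusted p below 0.05. The counts of these lists lay on both sides of those shares and were not tested against them. Among 29 immediate early genes and CREB targets 5 were higher at dawn and 1 at dusk at an unadjusted p below 0.05 (median -0.05), and the dusk-high gene was Atf3, a stress-induced factor, at 0.27 ± 0.06 (adjusted p = 0.0698). Among 23 enzymes that modify clock proteins the count was 1 at dawn and 2 at dusk (median -0.05). Among 38 genes of the mitochondrial respiratory chain it was 7 and 4, with a median of -0.0019 that turned to 0.041 under quantile normalisation. The medians of all other lists but that of the SCN peptides kept their sign under both rescalings, quantile normalisation and median centring of arrays.

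The 2 cycles were then compared, since they share no array. The first cycle holds 3 dawn and 3 dusk arrays, the second 3 and 2. All 56 called genes had the same sign in both, against 64.7% of all genes tested, and 55 had an unadjusted p below 0.05 in each cycle. As these genes were called on both cycles together, the more even measure starts from 1 cycle. Of 1128 genes with an unadjusted p below 0.05 in the first cycle (8.08%), 909 (80.6%) had the same sign in the second. Of 1734 such genes in the second (12.4%), 1461 (84.3%) had the same sign in the first. Among the 100 genes of smallest p the sign was shared by 86 and 90. Across genes, which are not independent and were normalised together, the differences of the cycles had a Pearson's r of 0.46 and a Spearman's rho of 0.43.

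**Figure D4:**
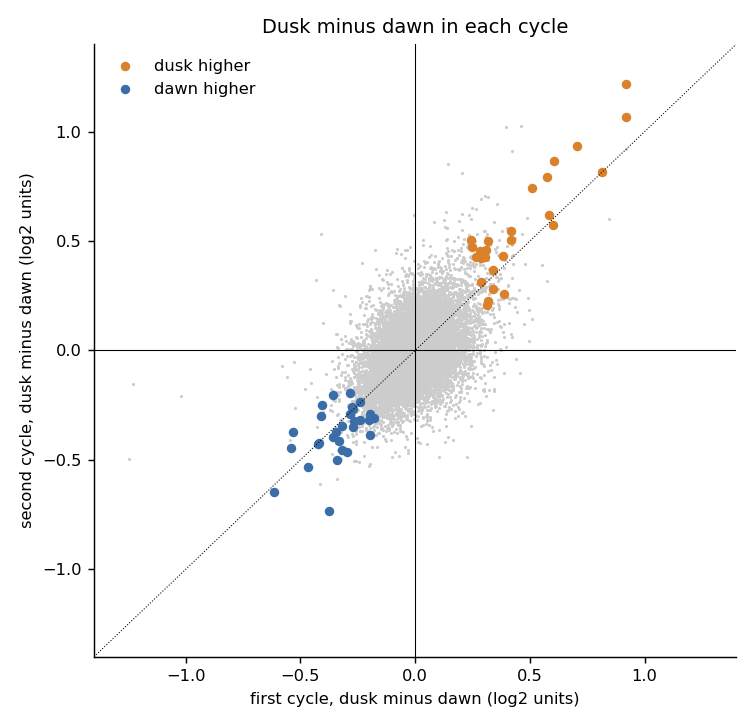
Dusk minus dawn in the first cycle (x axis) against the second (y axis), both in log2 units, for all genes tested in grey and the 56 called genes in colour, with a dotted line of equality. All orange points lie above 0 on both axes and all blue points below 0 on both, among grey points of which 64.7% share their sign.

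Within a cycle few genes passed the adjusted threshold. In the first cycle 4 did (0.0287%), all higher at dawn: Gh at -4.31, Prl at -2.33, S100a8 at -1.23 and S100a9 at -1.02 (adjusted p of 0.000902, 0.0268, 0.00331 and 0.00504). Gh and Prl encode growth hormone and prolactin of the anterior pituitary, and S100a8 and S100a9 encode the calprotectin of neutrophils. In the second cycle the differences of these genes were -0.82, -0.24, -0.15 and -0.21, and 0 genes passed in limma, with 1734 at an unadjusted p below 0.05. Prl did not pass without CT26, CT34, CT36 or CT38. Over both cycles Gh had -2.56 ± 0.82 (adjusted p = 0.129). Without CT46, 1 gene passed in the second cycle, Ifit3b at 1.07.

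No gene differed between cycles in its dusk minus dawn value at an adjusted p below 0.05 in limma, and 490 did at an unadjusted p below 0.05 (3.51%). The 3 of smallest p were Nog, a BMP antagonist (second minus first cycle -0.61 ± 0.12), Cyth4, an exchange factor for ARF proteins (-0.50 ± 0.11), and Prl (2.09 ± 0.45), each with an adjusted p of 0.997. Without CT48, 1 gene passed, Gh at 4.54.

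Window means over the day were set beside these calls. The called genes were chosen on their dawn and dusk values, so a highest or lowest mean there follows largely from the call. All 27 dusk-high genes had their highest window mean at dusk. Their lowest mean fell at dawn in 18, at midday (circadian times 4 to 8) in 5 and at night (circadian times 16 to 20) in 4. Of the 29 dawn-high genes 26 were highest at dawn and 3 at midday (Rgs16, Fabp7 and Peg10), and 24 were lowest at dusk and 5 at night. The night window kept CT40 and CT64, with interquartile ranges of 2.48 and 2.65 log2 units, narrower than that of CT62 (2.67). Pcbd1 (8.14) and Peg10 (9.61) were lowest at CT40, and without that array their night means would lie above their dusk means. The array left out at CT62 lay nearer to the dusk mean than to the dawn mean for 19 of the 27 and 26 of the 29. No share over all genes tested was taken for these window and CT62 counts, and CT62 spans a narrow range.

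Several measures of the arrays moved with the windows. The mean over 1190 olfactory and vomeronasal receptor genes, a gauge of background signal, was -0.12 to 0.0080 relative to the series mean at dawn and -0.0084 to 0.039 at dusk (difference 0.076, exact two-sided permutation p = 0.0173). The interquartile range was 2.81 to 2.90 at dawn and 2.77 to 2.81 at dusk (exact permutation p = 0.00866), and the median 6.25 to 6.27 and 6.26 to 6.29 (exact permutation p = 0.0130). Adjusted over the 4 measures tested, each of these p became 0.0231, and the fourth, the correlation with other arrays, had 0.190. With the receptor mean as a covariate 0 genes passed in limma and 1080 had an unadjusted p below 0.05, among them all 56 with the same sign, and the smallest adjusted p was 0.302. The 56 were called on these same arrays, so their shared sign adds no separate support. In that fit the median difference of the 27 dusk-high genes was 0.40 instead of 0.37, that of the 29 dawn-high genes -0.27 instead of -0.35, and standard errors were 1.46 times as large (median over genes). Differences smaller by more than 1.5 times were those of Tmem255a (-0.27), Scn3b (-0.19), Slc39a6 (-0.17) and H2-Bl (0.18).

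Markers of other cells moved too, and in bulk tissue fewer cells of a type and less RNA per cell cannot be told apart. All 9 markers of SCN neurons lay above the filter, with a mean of 8.47 to 8.90 at dawn and 8.39 to 8.79 at dusk. Their difference was above 0 in 2 and below 0 in 7 (median -0.18), 3 were higher at dawn and 1 at dusk at an unadjusted p below 0.05, and 1 was called (Rgs16). As Rgs16, Avp, Vip and Prok2 belong to this list, it gives no measure of cell content apart from the differences reported above. Of 11 oligodendrocyte markers all had a difference above 0 and 7 an unadjusted p below 0.05, with 0 called. Their mean was 8.48 to 8.95 at dawn and 8.63 to 9.12 at dusk, and Mag, a myelin protein, had 0.46 ± 0.10 (adjusted p = 0.0519). The mean of anterior pituitary markers was 5.08 to 6.70 at dawn and 5.22 to 5.58 at dusk, while 3 of the 7 measured lay below the filter. Lists of microglia, endothelium, meninges and mural cells, blood, choroid plexus and neighbouring hypothalamic neurons held 0 called genes.

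With the oligodendrocyte mean as a covariate 23 genes passed, 8 of them among the 56. Those 8 were Per2, Gm10561, 4933405O20Rik, Mmp14, Slc39a10, Epha6, Rasgrp1 and Tmem51. With the pituitary mean 7 passed, 6 of them among the 56 (Per2, Gm10561, Mmp14, Ifit3b, Kif1c and Rgs16). All 56 had the same sign and an unadjusted p below 0.05 in both fits. With the oligodendrocyte mean the differences of Fabp7, Gng8, Ifi27l2a and Ifit3 shrank by more than 1.5 times, and with the pituitary mean none of the 56 moved that far. With CT62 counted as dusk 253 genes passed, 86 higher at dusk and 167 at dawn, including 54 of the 56. When arrays 12 h apart were treated as blocks, 5 genes passed: Rbm3, Gm10561, Per2, Wfdc18 and Rgs16. The block fit lacked CT50, whose partner CT62 was not used, so its count reflects both the blocks and the missing array. CT50 held the highest dawn value of Rbm3. All 56 had the same sign in the fit with CT62 and in the fit with blocks as well. Because the 56 were called on these arrays, their signs and p in these fits add no separate support.

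**Figure D5:**
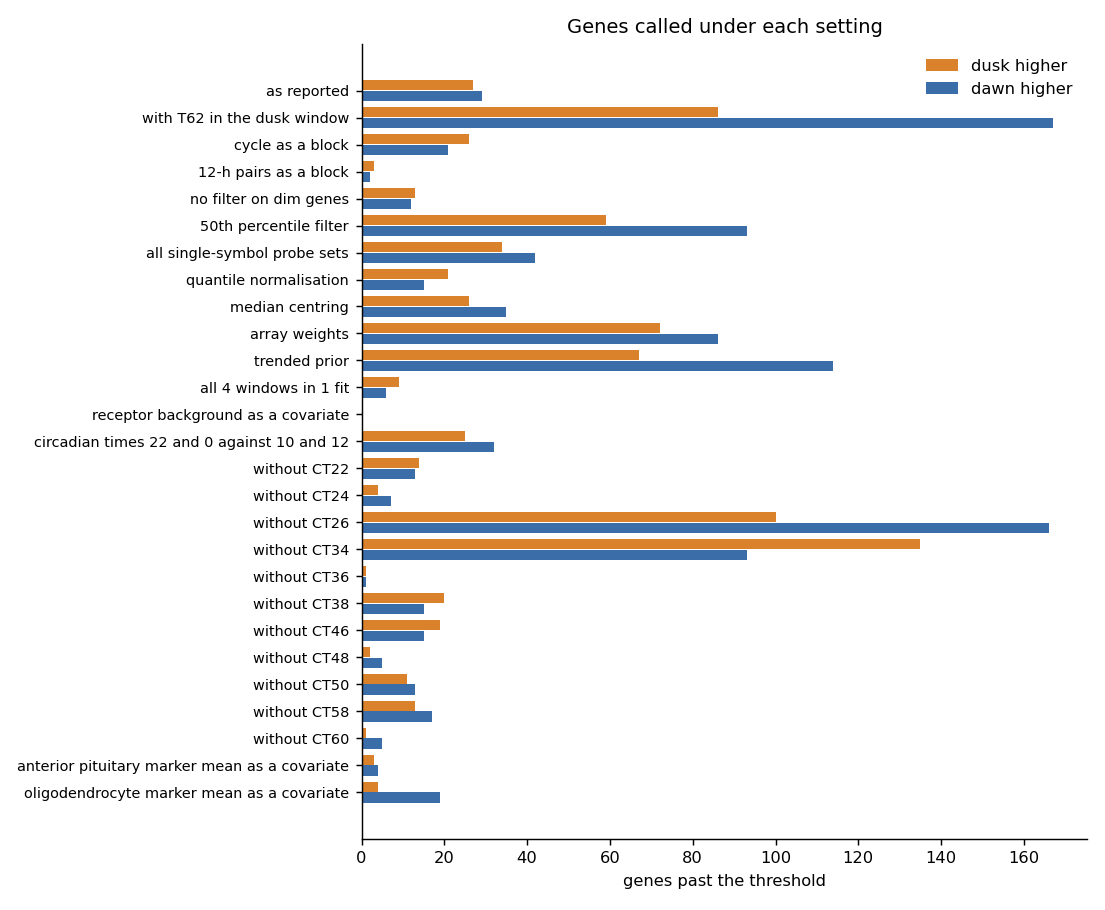
Genes past the adjusted threshold, dusk higher in orange and dawn higher in blue (x axis, number of genes), for the values as reported and for each other setting or left-out array. Beside the reported 27 and 29, the bars run from 0 and 0 with the receptor mean as a covariate to 135 at dusk without CT34 and 167 at dawn with CT62.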

How the data were processed

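Affymetrix MoGene 1.0 ST arrays were hybridised with SCN RNA that had been amplified (NuGen Pico WTA V2) and labelled with biotin, per the labels' protocols. The deposited values are log2 intensities that the authors normalised by RMA (version 1.3.1.187) in Affymetrix Expression Console, per the submitters' processing notes. Genome build and background settings are not given in the sources used here.

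Of 35556 probe sets 21789 had 1 gene symbol in the platform annotation, 1621 several and 12146 none. Entrez identifiers of 21698 matched RefSeq (GRCm38.p6), and 0 symbols changed. Each of 19938 genes was taken from its probe set of highest mean (999 had more than 1), and 13956 with a mean at or above the 30th percentile (log2 5.52) were tested. Genes below it were left out of the main tests. They entered the fits with no filter, the rescaling of arrays, and the receptor and marker means.

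Dusk minus dawn was fitted with limma 3.58.1 (lmFit, eBayes) in R 4.3.3, two-sided, with Benjamini-Hochberg adjustment at 0.05, on 6 dawn and 5 dusk arrays, then within each cycle and as an interaction. Array measures were tested by exact permutation (SciPy 1.17.1). Members and lists were chosen with earlier results of these data known, and lists are given by counts and medians with no test. The rule for named genes took every measured core clock gene, the 10 largest called differences in each direction with the same sign in both cycles, up to 3 called members of each list, and the 3 genes of smallest p for the difference between cycles. Other genes were named after their values were seen. Promoter windows came from RefSeq and were found for 46 of the 56 called genes.

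The fit was tested on simulated data of 13956 genes. It recovered 68.7% of genes changed by 0.3 log2 units, 94.0% at 0.6 and 100% at 1.2, and 6.91% of calls were false. Noise was drawn independently for each gene and array in a single run, with no effect shared across an array. The share of false calls in the simulation therefore does not carry over to the real arrays. Alternatives covered the filter, probe sets, scaling, array weights, prior variance, CT62, blocks, covariates, narrower windows and each array left out.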

Additional observations from a re-analysis of the deposited data

Results flagged for a closer look

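For named genes and array measures, a sample was singled out when its gap to the nearest other sample of its window, divided by the whole range of the window, exceeded Dixon's 95% critical value of 0.625 for 6 arrays or 0.710 for 5. Of 96 groups examined 2 passed, where chance gives about 1 in 20. The dawn array at CT22 had the highest dawn value of Gng8, 7.34, with the other 5 between 6.80 and 6.91 (gap over range 0.803). The dawn array at CT50 had the highest dawn value of Rbm3, 9.81, with the others between 9.36 and 9.51 (gap over range 0.668). Each of these values lies within the dusk range of its gene.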

How the results depend on the processing

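The counts of called genes, 27 higher at dusk and 29 at dawn, moved with most settings. They were 86 and 167 with CT62, 3 and 2 with arrays 12 h apart as a replicate block, 13 and 12 with no filter, 59 and 93 with a 50th percentile filter, 72 and 86 with array weights, 67 and 114 with a trended prior, 9 and 6 with all 4 windows in 1 fit, and 0 and 0 with the receptor mean as a covariate. Quantile normalisation left 15 at dawn and 21 at dusk. Covariates chosen after seeing the data gave 3 and 4 (anterior pituitary mean) and 4 and 19 (oligodendrocyte mean). Leaving out 1 array gave 1 to 135 at dusk and 1 to 166 at dawn, 0 to 1 for the difference between cycles, and 3 to 5 and 0 to 1 in the first and second cycle. The cause of these moves was not tested. The labels give no replicate numbers, so the blocks (arrays 12 h apart, and the cycle) were chosen here. The fit with arrays 12 h apart as blocks also lacked CT50, whose partner CT62 was not used. With the cycle as a block 26 and 21 passed, 38 of them among the 56. Nr1d2 turned from 0.034 to -0.017 with CT62. Of 1048 values of 42 named differences, 778 kept their side of the threshold, 263 lost it, 6 gained it and 1 changed sign. The 778 include the clock genes that were not called and had no call to lose, and all 263 losses fell on called genes. Per called gene the losses ran from 1 (Per2 and Gm10561) to 18 (Dtd1, with 7 kept). Dim genes are limited by background, and 5 interferon genes and 3 pituitary markers lay below the filter.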
